A study of Mus musculus with 40 samples.

Results

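The Regnase and Roquin mRNA decay factors were followed in bone marrow-derived macrophages (BMDMs) through the response to lipopolysaccharide (LPS). The 7 genes were taken by symbol from the 27179 genes of the deposited expression table. These 7 were Zc3h12a (Regnase-1), Zc3h12c (Regnase-3), Zc3h12d (Regnase-4), Rc3h1 (Roquin-1), Rc3h2 (Roquin-2), N4bp1 and Arid5a, and each one was found. The Regnase proteins are endoribonucleases with a zinc finger that cut stem-loops in the 3′ UTRs of cytokine mRNAs. The Roquin proteins bind related stem-loops, known as constitutive decay elements, and recruit the deadenylation machinery. N4BP1 is an endoribonuclease-related protein that restrains NF-κB signalling, and ARID5A binds the Il6 3′ UTR and protects the mRNA against Regnase-1. CPEB4, whose gene was deleted in one genotype, binds cytoplasmic polyadenylation elements (CPEs) in 3′ UTRs and acts on poly(A) tail length and translation.

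The series held 40 RNA-seq libraries from 8 male mice of a mixed C57BL/6J and 129 background, 4 wildtype (WT) and 4 with a full-body deletion of Cpeb4 (Cpeb4-/-). BMDMs of every mouse were left untreated (0 hr) or were given 10 ng/ml LPS for 1, 3, 6 or 9 hr, so that each of the 10 groups held 4 libraries and each mouse gave all 5 times. WT mice carried the numbers 25, 69, 87 and 88, and Cpeb4-/- mice the numbers 2, 3, 55 and 62. Values for single mice below follow these orders. Because the deletion was present throughout life and BMDMs were derived from the marrow, an effect inside the macrophage cannot be told apart from one on its precursors. No cage held mice of both genotypes, while WT mice 87 and 88 shared cage 9 and Cpeb4-/- mice 2 and 3 shared cage 104.

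All levels are rlog values, a log2 scale on which the authors had corrected library size and shrunk low counts, so folds of weakly counted genes are understated and levels of different genes are not compared. The table gives no count totals, and read depth per library was not used here. Replicate libraries of a group correlated at 0.992 to 0.998 across genes. In bulk RNA, fewer cells of a type and less RNA per cell cannot be told apart. All 8 macrophage markers examined were expressed (Adgre1, Csf1r, Cd68, Itgam, Mertk, Lyz2, Fcgr1 and Mrc1). Markers of other cells were mixed. Cd3e, Cd3g and Ly6g lay below 1 in every library. An average rlog of 2.32 or more was reached by 2 of 6 T cell, 1 of 5 B cell and 3 of 6 neutrophil markers. It was also reached by 2 of 4 dendritic cell, 1 of 3 mast cell and 2 of 5 stromal markers. Cd4, Lck, Cd79b, S100a8, Xcr1, Kit and Pdgfrb were among these. Cpeb4 itself overlapped between the genotypes at 0, 1, 3 and 9 hr and separated them at 6 hr alone, at 10.09 to 10.67 in WT against 8.74 to 9.66 in Cpeb4-/- (-1.27 ± 0.19 log2, limma SE, adjusted p = 0.00114, n = 4 mice each). The values count the whole gene and the deleted part was not given, so reads from outside it would not separate the groups. The genotype names are therefore those of the labels.

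The 3′ UTRs of these mRNAs are shown first, since CPEB4 and the Regnase and Roquin proteins all bind there. On GRCm38.p6 the genes lie at chr4:125118414-125127881 (Zc3h12a), chr9:52109569-52168730 (Zc3h12c), chr10:7832323-7870397 (Zc3h12d), chr1:160906411-160974976 (Rc3h1), chr2:37368861-37424370 (Rc3h2), chr8:86841136-86885296 (N4bp1) and chr1:36307733-36324037 (Arid5a). The longest annotated 3′ UTR of each gene (GENCODE, build GRCm38.p6) was searched on the sense strand, with U written as T. CPEs were counted as TTTTAT or TTTTAAT, and AU-rich pentamers as ATTTA. Rc3h1 held 20 CPEs in 7181 bases, Rc3h2 17 in 5331 and Zc3h12c 16 in 4062, above the medians of 10, 7 and 5 in 3′ UTRs within 10% of their lengths. Zc3h12d held 3 in 2327 bases, Arid5a 3 in 3826 and N4bp1 2 in 3548, against length-matched medians of 3, 5 and 4. The short 3′ UTR of Zc3h12a, 856 bases, held neither counted form, while 57.6% of the 1257 3′ UTRs of like length held at least 1. It does hold TTTTAAAT, within the last of its hairpins printed below. The authors' own longer list of CPE motifs includes that form, so by their list Zc3h12a has a CPE. The form was not counted in the other 3′ UTRs. ATTTA was found 25 times in Rc3h2, 20 times in Rc3h1, 14 times in Zc3h12c, 3 times in Zc3h12a and N4bp1, and 2 times in Zc3h12d and Arid5a. The CPE nearest the 3′ end is printed below for the mRNAs of Zc3h12c, Zc3h12d and Arid5a, which differ in how the genotypes compare further on, with the element in capitals within 30 bases.
Zc3h12c: ttttaaataaaaTTTTATttacagaaacaa
Zc3h12d: gctgtaaagctaTTTTATttggttcactgt
Arid5a: accctggacattTTTTATgctcagcaagct
They lie at chr9:52111344-52111373 on the minus strand, chr10:7870160-7870189 on the plus strand and chr1:36323025-36323054 on the plus strand, and begin their CPE 18, 225 and 993 bases before the end of the annotated 3′ UTR. The Zc3h12c run stops where the 3′ UTR used stops, while the gene span given above runs on to chr9:52109569. That further stretch was not searched.

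**Figure D1:**
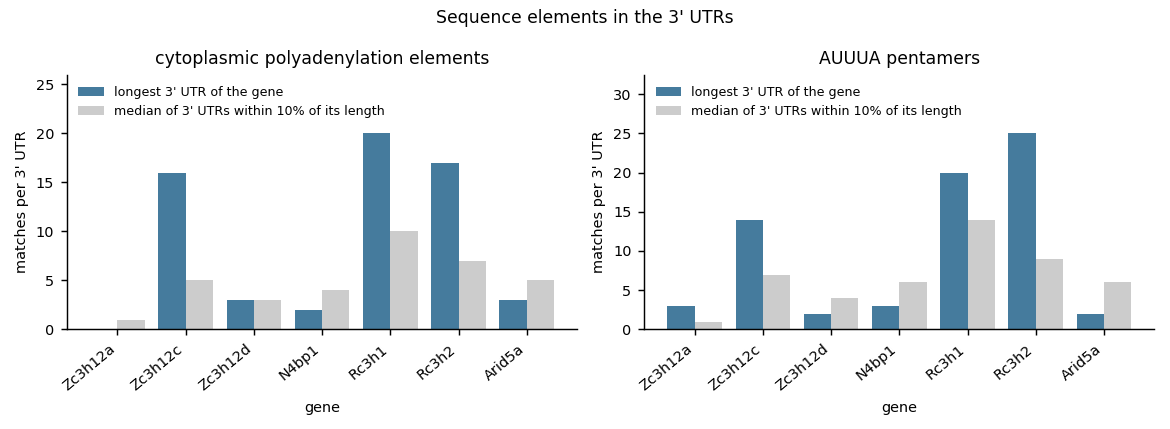
Number of CPEs (TTTTAT or TTTTAAT, left) and ATTTA pentamers (right) in the longest annotated 3′ UTR of each gene (blue), beside the median number in all 3′ UTRs within 10% of its length (grey). Zc3h12c, Rc3h1 and Rc3h2 stand above their grey bars in both panels, whereas Zc3h12a has neither of the CPE forms counted.

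Hairpins with a 3-base loop of pyrimidine, purine and pyrimidine, the shape bound by Regnase-1 and the Roquin proteins, were also searched, with at least 6 uninterrupted Watson-Crick pairs in the stem. Such a hairpin was present in 8.56% of 20603 3′ UTRs. Zc3h12a held 3, while 5.33% of 3′ UTRs of like length held any. Zc3h12c held 1, Rc3h1 held 4, of which a pair overlap in a run of alternating T and A, and Rc3h2 held 1, where 21.2%, 37.8% and 26.9% of 3′ UTRs of their lengths held at least 1. None was found in Zc3h12d, N4bp1 or Arid5a. The 3 hairpins of the Zc3h12a mRNA and 1 each of Rc3h1 and Rc3h2 are printed with the loop in capitals. The Rc3h1 and Rc3h2 hairpins are the same 15 bases.
Zc3h12a: gatacaCATtgtatc
Zc3h12a: aggcacCATgtgcct
Zc3h12a: atttaaaTATtttaaat
Rc3h1: aacttcTGTgaagtt
Rc3h2: aacttcTGTgaagtt
They lie at chr4:125119069-125119083, chr4:125118887-125118901 and chr4:125118662-125118678 (minus strand), chr1:160971660-160971674 (plus strand) and chr2:37373809-37373823 (minus strand). A match is a description of the sequence, and binding was not measured in these libraries.

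The promoters of the paralogs Zc3h12a and Zc3h12d are shown because their mRNAs moved in opposite directions in the first hours of LPS. Each run covers 250 bases before to 50 bases after a RefSeq start site (GRCm38.p6), at chr4:125127832-125128131 on the minus strand and chr10:7832220-7832519 on the plus strand, with every motif match in capitals. The Zc3h12d gene span given above begins at chr10:7832323, ahead of the start site used. Part of the 250 bases therefore lies within that span.
Zc3h12a: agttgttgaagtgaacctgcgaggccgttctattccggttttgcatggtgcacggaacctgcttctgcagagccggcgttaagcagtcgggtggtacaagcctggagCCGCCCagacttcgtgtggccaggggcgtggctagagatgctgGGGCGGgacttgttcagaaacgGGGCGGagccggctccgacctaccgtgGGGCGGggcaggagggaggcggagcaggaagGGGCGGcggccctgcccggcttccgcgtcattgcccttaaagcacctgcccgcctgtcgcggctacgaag
Zc3h12d: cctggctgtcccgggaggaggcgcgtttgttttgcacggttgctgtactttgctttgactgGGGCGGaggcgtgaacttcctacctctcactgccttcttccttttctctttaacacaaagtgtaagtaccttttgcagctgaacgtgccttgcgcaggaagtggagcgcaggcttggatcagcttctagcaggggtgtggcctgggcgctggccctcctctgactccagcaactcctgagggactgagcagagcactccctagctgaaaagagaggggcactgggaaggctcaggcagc
Both strands were searched for 6 motifs, the NF-κB letters (GGG and TTTCC with any 2 bases between), the AP-1 letters TGANTCA, the CRE letters TGACGTCA, the ISRE letters (GAAA and GAAA with any 2 bases between), the GAS letters TTCNNNGAA and the GC box GGGCGG. Zc3h12a held 5 GC boxes and Zc3h12d held 1, and no matches overlapped. No other motif was matched in either window. Across the 8 windows of the 7 genes, the sole match to a motif other than the GC box was 1 AP-1 sequence in Rc3h1, 133 bases before the start. Matches to any of the motifs numbered 7 in Rc3h1 with the AP-1 sequence included, 3 in Arid5a and 2 in N4bp1. They numbered 1 and 0 in the windows of Zc3h12c and 0 in Rc3h2. Of 32851 promoter windows, 35.7% held the GC box, 7.81% the AP-1 letters and 1.63% the NF-κB letters. The window ends 250 bases before the start, so elements farther away were not searched.

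LPS changed the level of every member. The first hour of LPS raised 4 of 7 mRNAs in WT and lowered 1 (limma, adjusted p under 0.05 over all genes tested, n = 4 mice), where 33.9% of 13100 tested genes were called in either direction and 17.3% were higher. After 3 hr, 6 stood above their 0 hr level and 1 below (background 67.8%, 32.5% higher). After 6 hr all 7 stood above it (77.9%, 38.7% higher), and after 9 hr 5 did while 2 were not called (71.5%, 35.9% higher). The median change of the 7 over 0 hr was 0.75, 1.81, 2.02 and 1.39 log2 at 1, 3, 6 and 9 hr, beside 0.024, -0.021, -0.020 and -0.0044 over all genes. In Cpeb4-/-, the numbers of members above and below their 0 hr level were 6 and 1 after 1 hr (background 43.8% of 13116 genes, 23.8% higher), 6 and 1 after 3 hr (71.3%, 34.4% higher), 6 and 0 after 6 hr (79.1%, 39.0% higher) and 4 and 1 after 9 hr (72.8%, 36.4% higher). The steps from 1 to 3 hr, 3 to 6 hr and 6 to 9 hr called 60.1%, 63.7% and 51.4% of genes in WT and 64.0%, 64.4% and 53.6% in Cpeb4-/-, so a call of 1 member is common among genes in this response. With mouse as a block, 6 of 7 were called in WT at 1 hr and 7 of 7 at 9 hr, in fits that called 40.3% and 75.4% of genes, the additions being Rc3h1 and Rc3h2 with the values given below.

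**Figure D2:**
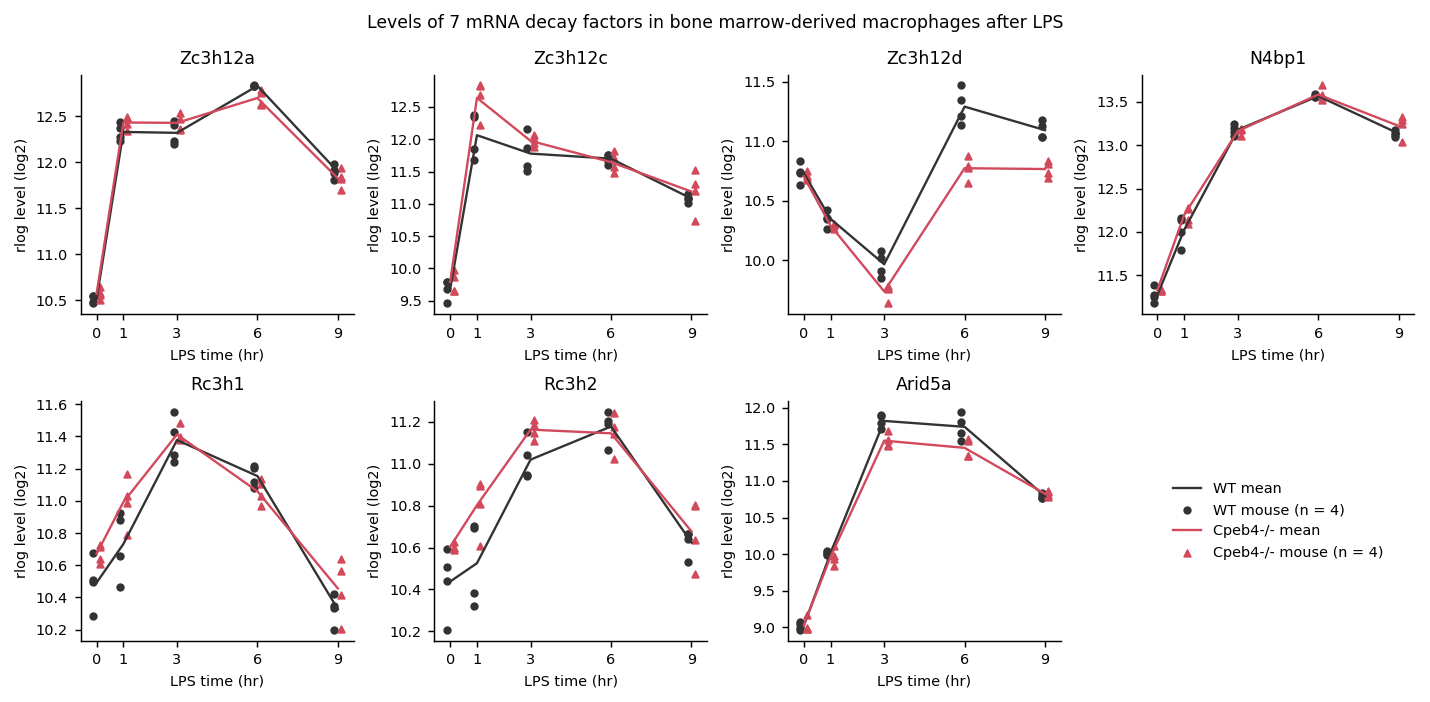
rlog level (log2 scale, vertical axis, its own range in each panel) of each mRNA against hours of LPS, with 1 point per mouse (WT dark circles, Cpeb4-/- red triangles, 4 of each per time) and lines through the group means. Zc3h12d dips to 9.96 in WT and 9.74 in Cpeb4-/- at 3 hr while the other 6 mRNAs stand above their 0 hr level.

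Zc3h12a, whose product cuts Il6 and Il12b mRNA, was induced within 1 hr and had its highest mean at 6 hr. Its WT levels were 10.51 ± 0.041, 12.33 ± 0.094, 12.32 ± 0.12, 12.83 ± 0.0037 and 11.90 ± 0.070 at 0, 1, 3, 6 and 9 hr (mean ± SD, n = 4). The rise from 0 to 1 hr was 1.82 ± 0.056 log2 (limma SE, adjusted p = 5.29e-16) and was present in each of the 4 mice. Levels at 1 and 3 hr did not differ beyond their spread (-0.0098 ± 0.056, adjusted p = 0.890), although quantile normalization of the table gave a difference of -0.26 (adjusted p = 5.76e-04). The level rose again from 3 to 6 hr (0.51 ± 0.056, adjusted p = 1.24e-07) and then fell to 9 hr (-0.94 ± 0.056, adjusted p = 4.83e-11). Cpeb4-/- levels were 10.57 ± 0.059, 12.43 ± 0.072, 12.43 ± 0.089, 12.70 ± 0.078 and 11.83 ± 0.099 at the 5 times, and the step from 3 to 6 hr was 0.27 ± 0.055 (adjusted p = 2.35e-04). The WT level at 6 hr was above that at 1 hr by 0.50 ± 0.056 (adjusted p = 8.15e-08, 77.3% of genes called), and quantile normalization ended that call (0.052, adjusted p = 0.414). The Cpeb4-/- level at 6 hr was above that at 1 hr by 0.27 ± 0.055 (adjusted p = 1.94e-04, 76.7% of genes called), and below it after quantile normalization (-0.14, adjusted p = 0.0230). Quantile normalization left the step from 3 to 6 hr at 0.12 (adjusted p = 0.0541).

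Zc3h12c, the Regnase family member known for its expression in macrophages, had its highest mean at the first time point after LPS in both genotypes. WT levels went from 9.68 ± 0.15 at 0 hr to 12.06 ± 0.35 at 1 hr, a rise of 2.38 ± 0.14 log2 (adjusted p = 1.56e-11). They stood at 11.78 ± 0.30, 11.70 ± 0.075 and 11.08 ± 0.058 at 3, 6 and 9 hr. In WT the 1 and 3 hr levels were not separated by the test (-0.28 ± 0.14, adjusted p = 0.0837, and 0.0358 with mouse as a block), nor were 3 and 6 hr (-0.079 ± 0.14, adjusted p = 0.637). In Cpeb4-/- the levels were 9.79 ± 0.16, 12.64 ± 0.29, 11.97 ± 0.076, 11.64 ± 0.15 and 11.19 ± 0.34, with a rise of 2.85 ± 0.14 to 1 hr (adjusted p = 4.55e-13) and a change of -0.66 ± 0.14 from 1 to 3 hr (adjusted p = 3.01e-04). All 8 mice rose from 0 to 1 hr.

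Zc3h12d, the Regnase family member best known in lymphocytes, ran the other way at first. In WT it fell from 10.73 ± 0.083 at 0 hr to 10.35 ± 0.067 at 1 hr (-0.39 ± 0.068 log2, adjusted p = 1.29e-04) and 9.96 ± 0.10 at 3 hr (-0.77 ± 0.068 from 0 hr, adjusted p = 3.32e-09). It then rose by 1.33 ± 0.068 to 11.29 ± 0.15 at 6 hr (adjusted p = 1.60e-12), above its 0 hr level by 0.56 ± 0.068 (adjusted p = 2.41e-07), and was 11.09 ± 0.070 at 9 hr. All 4 WT mice followed this course. In Cpeb4-/- it fell from 10.71 ± 0.033 to 10.29 ± 0.018 and 9.74 ± 0.068 (-0.97 ± 0.047 at 3 hr, adjusted p = 1.01e-13) and rose by 1.04 ± 0.047 to 10.77 ± 0.094 at 6 hr (adjusted p = 1.13e-13). Here the 6 and 9 hr levels (10.77 ± 0.066 at 9 hr) were not separated from 0 hr (0.068 ± 0.047, adjusted p = 0.187, and 0.061 ± 0.047, adjusted p = 0.247). Quantile normalization turned these last differences to -0.18 (adjusted p = 0.00110) and -0.11 (adjusted p = 0.0372), below the 0 hr level.

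N4bp1 had its highest mean at 6 hr in both genotypes. WT levels were 11.27 ± 0.087, 12.02 ± 0.17, 13.18 ± 0.057, 13.57 ± 0.018 and 13.14 ± 0.035 at 0, 1, 3, 6 and 9 hr, and Cpeb4-/- levels 11.33 ± 0.011, 12.20 ± 0.093, 13.16 ± 0.041, 13.59 ± 0.074 and 13.22 ± 0.13. The total rise to 6 hr was 2.296 log2 in WT (adjusted p = 8.10e-18) and 2.26 ± 0.056 in Cpeb4-/- (adjusted p = 8.49e-19). The 3 and 9 hr levels were neighbours that did not differ beyond their spread (WT -0.043 ± 0.063, adjusted p = 0.555). The WT step from 3 to 6 hr, 0.39 ± 0.063 (adjusted p = 1.87e-05), was reduced to 0.12 by quantile normalization (adjusted p = 0.125). The change from 6 to 9 hr was -0.43 ± 0.063 in WT (adjusted p = 8.41e-06) and -0.36 ± 0.056 in Cpeb4-/- (adjusted p = 1.47e-05), and quantile normalization ended both calls (-0.13, adjusted p = 0.122, and -0.11, adjusted p = 0.0749).

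The Roquin mRNAs had their highest means at 3 or 6 hr. Rc3h1 levels in WT were 10.49 ± 0.16, 10.73 ± 0.21, 11.38 ± 0.14, 11.15 ± 0.066 and 10.33 ± 0.093 over the 5 times. Its rise to 3 hr was 0.89 ± 0.094 log2 (adjusted p = 5.33e-08) and its change from 6 to 9 hr -0.83 ± 0.094 (adjusted p = 3.90e-07). The lower levels at 0, 1 and 9 hr were close neighbours, with 0.24 ± 0.094 from 0 to 1 hr (adjusted p = 0.0556, and 0.00989 with mouse as a block) and -0.16 ± 0.094 from 0 to 9 hr (adjusted p = 0.126, and 0.0405 with the block). Rc3h2 in WT went from 10.44 ± 0.17 to 10.53 ± 0.20, 11.02 ± 0.099, 11.18 ± 0.077 and 10.62 ± 0.064. Its rise to 6 hr was 0.74 ± 0.087 (adjusted p = 1.51e-07), and 9 hr lay 0.19 ± 0.087 above 0 hr (adjusted p = 0.0627, and 0.0167 with mouse as a block). Cpeb4-/- cells had Rc3h1 at 10.67 ± 0.056, 10.99 ± 0.16, 11.41 ± 0.046, 11.06 ± 0.077 and 10.46 ± 0.19, below the 0 hr level at 9 hr (-0.21 ± 0.078, adjusted p = 0.0187). That call was lost without mouse 2 or 55 (adjusted p = 0.0586 and 0.0701) and without a filter on low values (0.0533). Their Rc3h2 levels were 10.60 ± 0.016, 10.80 ± 0.14, 11.16 ± 0.044, 11.15 ± 0.093 and 10.68 ± 0.16. Quantile normalization ended the Cpeb4-/- calls of Rc3h2 from 0 to 1 hr (0.086, adjusted p = 0.272) and of Rc3h1 from 0 to 6 hr (0.12, adjusted p = 0.137), and placed WT Rc3h1 lower at 9 hr than at 0 hr (-0.32, adjusted p = 0.00477).

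Arid5a, the factor that stabilizes Il6 mRNA, had its highest mean at 3 hr in both genotypes. WT levels were 9.02 ± 0.049, 10.01 ± 0.027, 11.82 ± 0.090, 11.74 ± 0.17 and 10.79 ± 0.033, with 2.80 ± 0.065 log2 from 0 to 3 hr (adjusted p = 1.39e-18). The 3 and 6 hr levels were not separated (-0.081 ± 0.065, adjusted p = 0.282), while quantile normalization placed 6 hr lower (-0.21, adjusted p = 0.00495). By 9 hr the level had fallen by 0.95 from 6 hr (adjusted p = 2.68e-10). In Cpeb4-/- the levels were 9.03 ± 0.091, 9.96 ± 0.11, 11.55 ± 0.092, 11.45 ± 0.12 and 10.82 ± 0.037, and the rise to 3 hr was 2.53 ± 0.065 (adjusted p = 2.63e-18). The order of the times was the same in both genotypes.

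The genotypes were then compared within each time. Before LPS, 0 of 7 members were called by limma, where 1.31% of 13095 genes were, and 2 members had an unadjusted p under 0.05. After 1 hr, 0 of 7 were called (1.91% of 13118 genes), with 3 at an unadjusted p under 0.05. After 3 hr, 1 member was lower in Cpeb4-/- (background 3.68% of 13083 genes, 1.87% lower). The count was 2 lower after 6 hr (16.3% of 13039, 9.92% lower) and 1 lower after 9 hr (7.91% of 13008, 3.22% lower). No member was called higher in Cpeb4-/- at any time. The called members were Zc3h12d at 6 and 9 hr and Arid5a at 3 and 6 hr.

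**Figure D3:**
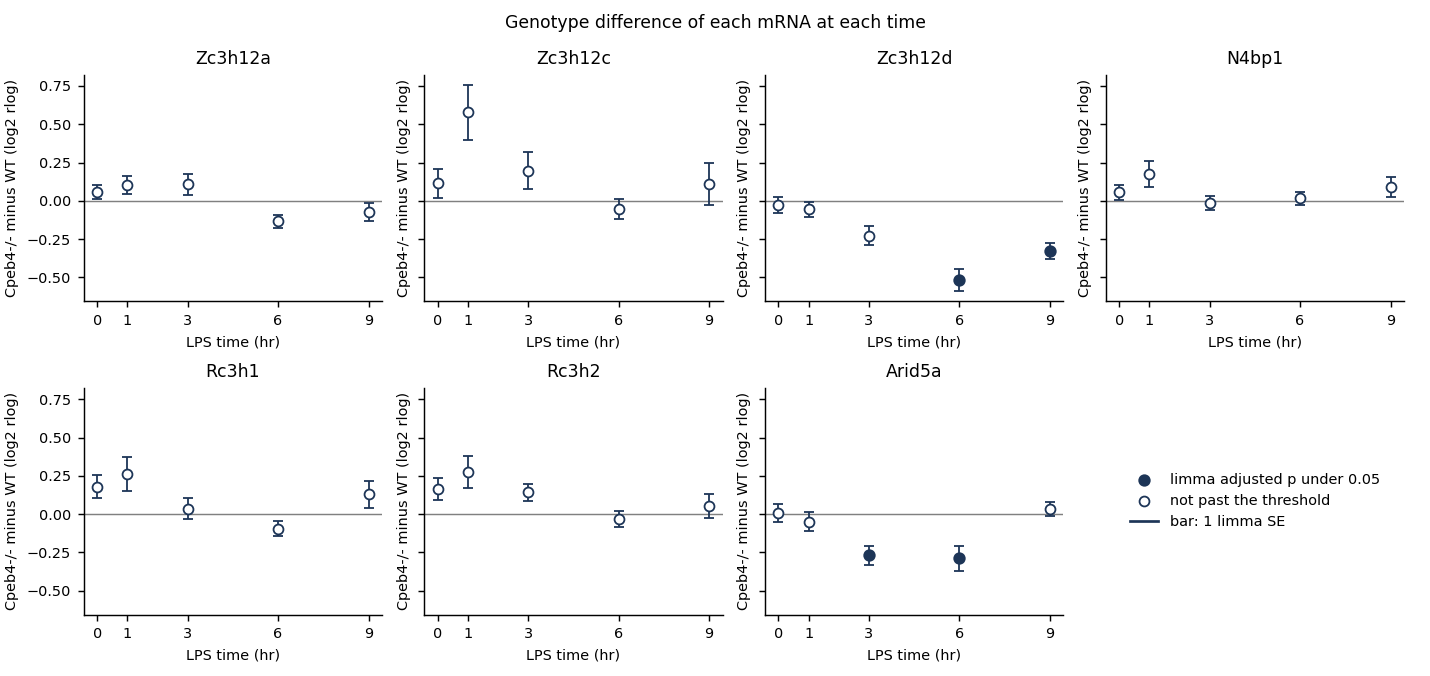
Difference in rlog level between Cpeb4-/- and WT (log2, vertical axis, the same scale in all panels) at each hour of LPS, with bars of 1 limma SE (n = 4 mice per genotype). Filled points passed an adjusted p of 0.05, and these are Zc3h12d at 6 and 9 hr and Arid5a at 3 and 6 hr, all below 0.

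Zc3h12d was not called before LPS, and it separated the genotypes after 3, 6 and 9 hr, with Cpeb4-/- below. At 0 hr WT levels were 10.74, 10.73, 10.63 and 10.83 and Cpeb4-/- levels 10.71, 10.69, 10.67 and 10.75 (-0.027 ± 0.050 log2, adjusted p = 0.779). At 3 hr they were 10.08, 9.91, 10.02 and 9.85 against 9.79, 9.64, 9.76 and 9.77. Every Cpeb4-/- library lay below every WT library, and the difference of -0.23 ± 0.063 had an adjusted p of 0.0723, which became 0.00754 in a fit of all 40 libraries with mouse as a block, which called 5.47% of genes lower. At 6 hr WT levels were 11.47, 11.21, 11.35 and 11.14 and Cpeb4-/- levels 10.79, 10.65, 10.88 and 10.77. The groups did not overlap, the difference was -0.52 ± 0.070 (adjusted p = 7.64e-04), and the ratio of Cpeb4-/- to WT was 0.698. At 9 hr they were 11.18, 11.04, 11.13 and 11.03 against 10.69, 10.73, 10.81 and 10.83, again without overlap (-0.33 ± 0.054, adjusted p = 0.00741, ratio 0.797). The exact permutation test of 4 against 4 mice gave p = 0.0286 at 3, 6 and 9 hr, the smallest it can give (two-sided, 0.2 after adjustment over the 35 tests of 7 members at 5 times). Of all genes tested, 6.58%, 12.0% and 8.51% were lower in Cpeb4-/- without overlap at 3, 6 and 9 hr. The 6 hr difference was -0.59 within batch 1 and -0.44 within batch 2 (2 mice of each genotype per batch), and the 9 hr difference -0.32 and -0.33. The calls at 6 and 9 hr held under all 14 alternatives, at adjusted p of 4.28e-08 to 0.0346 and 7.39e-05 to 0.0373.

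Arid5a was lower in Cpeb4-/- at the height of its induction and not at 9 hr. At 3 hr WT levels were 11.89, 11.71, 11.90 and 11.79 and Cpeb4-/- levels 11.56, 11.47, 11.68 and 11.50, without overlap. Of all genes tested, 6.58% were lower without overlap at 3 hr. The difference was -0.27 ± 0.061 log2 (adjusted p = 0.0424, exact p = 0.0286, 0.2 after adjustment over the 35 exact tests, ratio 0.829). At 6 hr they were 11.55, 11.81, 11.66 and 11.95 against 11.35, 11.54, 11.58 and 11.35. Here WT mouse 25 fell within the Cpeb4-/- range, the difference was -0.29 ± 0.082 (adjusted p = 0.0315), and the exact p was 0.0571 (0.273 after adjustment). At 9 hr the groups overlapped (0.033 ± 0.045, adjusted p = 0.661). Leaving out single mice ended both calls. The 3 hr call was lost without WT mouse 25 or 87 or Cpeb4-/- mouse 2, 3 or 62, at adjusted p up to 0.140, and with quantile normalization (0.0605) or batch as a covariate (0.0698). The 6 hr call was lost without WT mouse 69 or 88 or Cpeb4-/- mouse 2 or 62, at adjusted p up to 0.0929. Both calls also ended without a filter on low values (0.158 and 0.239) or without a variance trend (0.0827 and 0.0916). The difference ranged from -0.31 to -0.22 at 3 hr and from -0.35 to -0.22 at 6 hr in all 14 alternatives.

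Zc3h12a at 6 hr stood just outside the threshold. WT levels were 12.83, 12.83, 12.84 and 12.83, the tightest group of any member, and Cpeb4-/- levels 12.64, 12.78, 12.75 and 12.63. All Cpeb4-/- libraries were below all WT libraries, as for 12.0% of all genes at 6 hr. The difference was -0.13 ± 0.043 log2 (adjusted p = 0.0527, exact p = 0.0286, 0.2 after adjustment over the 35 exact tests, ratio 0.912). Its differences at 0, 1, 3 and 9 hr were 0.060 ± 0.046, 0.10 ± 0.060, 0.11 ± 0.069 and -0.072 ± 0.060, with overlapping groups. Without Cpeb4-/- mouse 3 or 55 the adjusted p at 6 hr was 0.0377 or 0.0373 (fits with 7.31% and 11.8% of genes called lower), a stricter filter (average rlog of 5 or more) gave 0.0483, and quantile normalization moved the difference to -0.059 (adjusted p = 0.279).

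Summed macrophage markers were lower in Cpeb4-/- without overlap at all 5 times, those before the member calls included. Sums of linear levels weigh genes of high level most. Lyz2 led the macrophage list (mean 18.24, the others 9.66 to 15.94). Cd4 and Lck led the T cell list (6.47 and 6.45, the others at most 0.40). Pdgfrb led the stromal list (7.37, the others at most 2.42). A shift of a sum can thus rest on very few genes. The log2 of the summed linear macrophage levels was 18.59 to 18.86 in Cpeb4-/- against 18.92 to 19.24 in WT at 0 hr and 18.72 to 18.94 against 19.07 to 19.35 at 1 hr, with 0 of 8 called (background 1.31% and 1.91%). At 6 hr, 5 of 8 were lower in Cpeb4-/- (Csf1r, Cd68, Lyz2, Fcgr1 and Mrc1) and none was higher, and the sum was 18.73 to 18.96 in Cpeb4-/- against 19.04 to 19.17 in WT. Of all genes, 16.3% were called at 6 hr and 9.92% were lower. At 3 hr the macrophage sum was 18.62 to 18.84 against 19.09 to 19.17, with 1 of 8 lower (background 1.87% lower), and at 9 hr 18.79 to 19.00 against 19.03 to 19.12, with 3 of 8 lower (3.22%). Among markers of other cells at 6 hr, the T cell genes Cd4 and Lck, the dendritic cell gene Xcr1 and the mast cell gene Kit were lower and the stromal gene Pdgfrb was higher, and 0 of the B cell or neutrophil markers was called. The summed T cell list was 7.98 to 8.18 against 8.29 to 8.68 in WT, the dendritic list 6.33 to 6.65 against 6.74 to 7.10, the mast cell list 3.34 to 3.67 against 3.98 to 4.10 and the stromal list 9.20 to 9.48 against 8.56 to 8.75. At 9 hr the T cell list was 6.72 to 7.08 against 7.16 to 7.37, with Lck called, the dendritic list 5.94 to 6.04 against 6.16 to 6.58 and the stromal list 8.42 to 9.04 against 7.95 to 8.33, with Pdgfrb called. At 0 hr the B cell list was 5.88 to 6.09 against 6.19 to 6.64 and the mast cell list 2.96 to 3.22 against 3.26 to 4.10, and at 1 hr the mast cell list was 3.25 to 3.77 against 3.78 to 4.38, with no marker called. At 3 hr the dendritic cell gene Zbtb46 was higher. Cd3e and Cd3g, which define T cells, were near 0 throughout. The part of these shifts in the member differences was not tested.

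At 1 hr the members with the largest differences were higher in Cpeb4-/- by value, with no call. Zc3h12c was 12.34, 12.37, 11.69 and 11.85 in WT and 12.22, 12.82, 12.69 and 12.83 in Cpeb4-/- (0.58 ± 0.18 log2, adjusted p = 0.0858). Only Cpeb4-/- mouse 2 lay inside the WT range. Differences were 0.28 ± 0.10 for Rc3h2 (adjusted p = 0.107), 0.26 ± 0.11 for Rc3h1 (0.131) and 0.17 ± 0.085 for N4bp1 (0.170). In each of these 4 mRNAs the lowest WT libraries were those of mice 87 and 88, which shared cage 9, and the lowest Cpeb4-/- library was that of mouse 2. Mice 2 and 3, which shared cage 104, were at 10.79 and 11.17 for Rc3h1 and at the Zc3h12c values above. For Rc3h2 they were at 10.61 and 10.89, and for N4bp1 they lay close together, at 12.09 and 12.14. Cpeb4 mRNA, at 9.35, 9.46, 7.68 and 8.08 in WT, was also lowest in mice 87 and 88. The part of cage or of a library in the difference was not tested. In the fit of 40 libraries with mouse as a block, all 4 were called, at adjusted p of 0.00482 for Zc3h12c, 0.0117 for Rc3h2, 0.0208 for Rc3h1 and 0.0293 for N4bp1. That fit called 33.0% of all genes at 1 hr. Zc3h12c was called on leaving out WT mouse 69 (adjusted p = 0.0430, 9.69% of genes called higher) or Cpeb4-/- mouse 2 (0.0475, 3.09%).

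**Figure D4:**
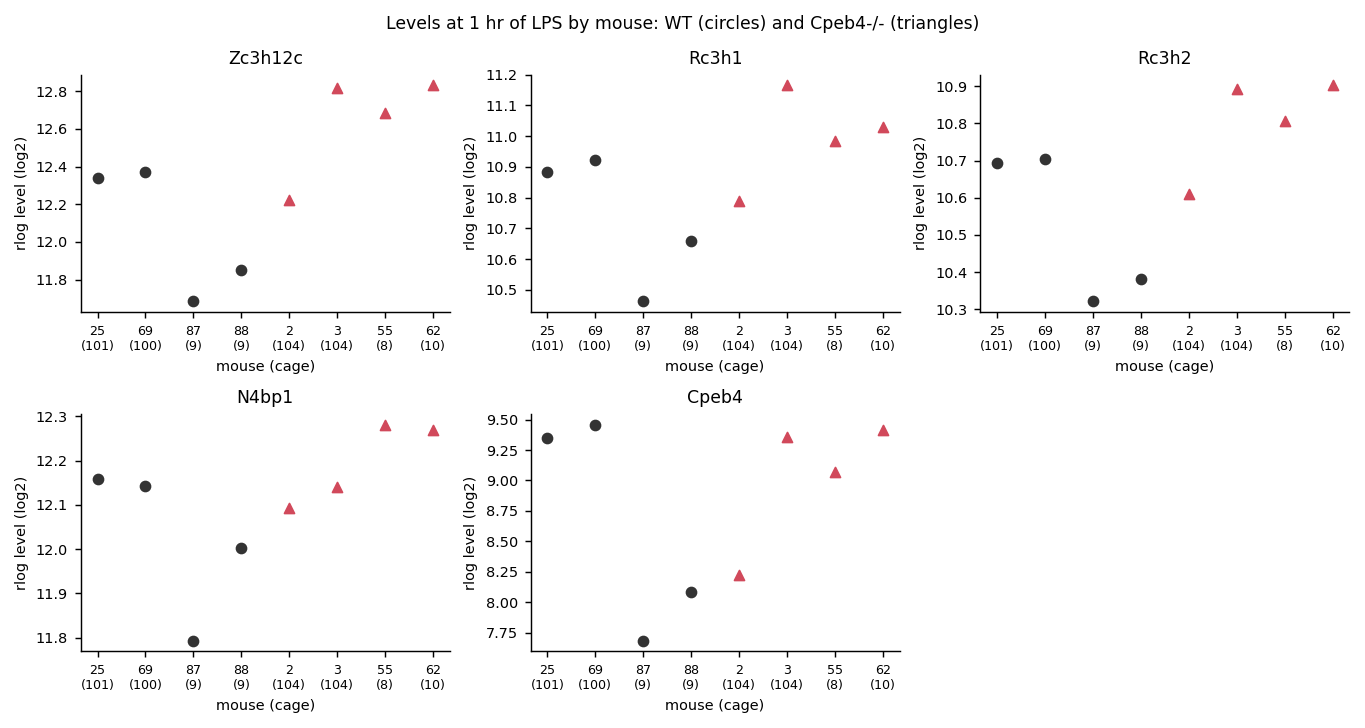
rlog level (log2 scale, vertical axis) of 4 members and of Cpeb4 at 1 hr of LPS in each mouse, with the cage number in brackets (WT dark circles, Cpeb4-/- red triangles). WT mice 87 and 88 of cage 9 are the lowest WT points in all 5 panels, and mouse 2 is the lowest Cpeb4-/- point.

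At 3 and 9 hr further calls hung on 1 mouse. Without WT mouse 88, Zc3h12c (0.32, adjusted p = 0.0250) and Rc3h2 (0.19, 0.0247) were called higher in Cpeb4-/- at 3 hr and Zc3h12d lower (-0.27, 0.0180), in a fit that called 19.8% of genes. Without Cpeb4-/- mouse 2, Zc3h12c, Rc3h1 and N4bp1 were called higher at 9 hr (0.26, 0.21 and 0.15 log2), in a fit that called 18.4% of genes higher. With all mice their 9 hr differences were 0.11 ± 0.13, 0.13 ± 0.090 and 0.089 ± 0.064.

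Whether the genotype difference after LPS departed from that before LPS was tested as an interaction over all 40 libraries. Zc3h12d passed at 6 hr, where the difference had moved by -0.49 ± 0.083 log2 from its 0 hr value (adjusted p = 5.29e-04). It was the sole member called, beside 2.04% of 13103 genes called lower. At 9 hr its interaction was -0.30 ± 0.083 (adjusted p = 0.0507, where 0.771% of genes were called lower, and 0.00755 with mouse as a block, which called 2.28% of genes lower). Arid5a at 6 hr had -0.30 ± 0.093 (adjusted p = 0.0721) and Zc3h12a -0.19 ± 0.079 (0.209). With mouse as a block these became 0.0412 and 0.0445, in a fit that called 5.33% of genes lower. At 1 and 3 hr 0 members were called (0.00763% and 0.206% of genes, limma), with 1 and 2 members at an unadjusted p under 0.05 and 0 members called with the block.

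The rest of the pathway was taken from 3 gene lists. Among relatives and cofactors, 8 of 9 genes were expressed and Zc3h12b (Regnase-2) was not, with a mean level of 0.51. In WT at 6 hr, 7 of 8 were higher than at 0 hr and 1 was lower, with a median of 0.41 log2 (background 77.9%, 38.7% higher). Nufip2, a partner of the Roquin proteins, rose by 1.09 ± 0.092, Cnot1, the deadenylase scaffold, by 0.58 ± 0.15 and the RNA helicase Ddx6 by 0.56 ± 0.076, whereas Nynrin, a nuclease-domain relative of N4BP1, changed by -1.97 ± 0.13. Between genotypes, Nynrin was higher in Cpeb4-/- at 1 hr (0.63 ± 0.11, adjusted p = 0.0311) and 9 hr (0.60 ± 0.13, 0.0203), and 0 of 8 was called at 0, 3 or 6 hr. The background at 0, 1, 3, 6 and 9 hr was 1.31%, 1.91%, 3.68%, 16.3% and 7.91% of genes called.

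Genes that act upstream of the Regnase and Roquin proteins rose with LPS. In WT, 7 of 8 were higher and 1 was lower at 6 hr, with a median of 1.10 log2, where 77.9% of all genes were called and 38.7% were higher. Malt1, the paracaspase that cleaves Regnase-1, the Roquin proteins and N4BP1, rose by 2.50 ± 0.11, Myd88, the Toll-like receptor adaptor, by 1.82 ± 0.049, Tank by 1.72 ± 0.080 and Casp8, the caspase that also cleaves N4BP1, by 1.40 ± 0.067. Irak1 was the lower gene (-0.50 ± 0.043). None of the 8 was called between genotypes at any time, while 3 had an unadjusted p under 0.05 at 6 hr. The background of genotype calls ran from 1.31% of genes at 0 hr to 16.3% at 6 hr.

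Known targets of these proteins split between the genotypes. In WT, 12 of 17 target mRNAs were higher at 1 hr and 0 were lower (median 2.31 log2), and at 6 hr 12 were higher and 2 lower (median 2.35). Of all genes tested, 17.3% were higher at 1 hr and 38.7% at 6 hr (33.9% and 77.9% in either direction). The WT changes of largest size at 6 hr were those of Lcn2 (5.27 ± 0.069), Ptgs2 (4.82 ± 0.13), Il6 (4.73 ± 0.12) and Il12b (4.31 ± 0.083). Comparing genotypes at 6 hr, 4 targets were higher and 4 lower in Cpeb4-/-, with a median of -0.050 beside -0.015 over all genes. The background was 16.3% of genes called in either direction and 9.92% lower. The neutrophil chemokine Cxcl3 was higher by 1.80 ± 0.17, the prolyl hydroxylase Egln3 by 0.88 ± 0.13 and Cxcl1 by 0.70 ± 0.10, and the interleukin Il6 by 0.48 ± 0.13 (adjusted p = 0.0206). Il12b was lower (-0.53 ± 0.16, adjusted p = 0.0451), as were Tnf (-0.35 ± 0.059), Stat3 (-0.21 ± 0.056) and Nfkbiz (-0.17 ± 0.052). Il6 and Il12b, both cut by Regnase-1, thus differed in opposite directions. Before LPS 0 of 17 were called, after 1 hr 1 was higher (Ptgs2, 0.53 ± 0.11), after 3 hr 3 were higher (Cxcl3 0.81 ± 0.11, Cxcl1 0.47 ± 0.082 and Ptgs2 0.35 ± 0.072), and after 9 hr 2 were higher (Cxcl3 1.51 ± 0.26 and Egln3 0.89 ± 0.20) and 2 lower (Tnf -0.46 ± 0.10 and Lcn2 -0.41 ± 0.064). The background at 0, 1, 3 and 9 hr was 1.31%, 1.91%, 3.68% and 7.91% of genes called in either direction. The interaction test called Cxcl3, Tnf and Stat3 at 6 hr and Cxcl3, Tnf and Lcn2 at 9 hr, beside 385 and 231 of all 13103 genes.

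**Figure D5:**
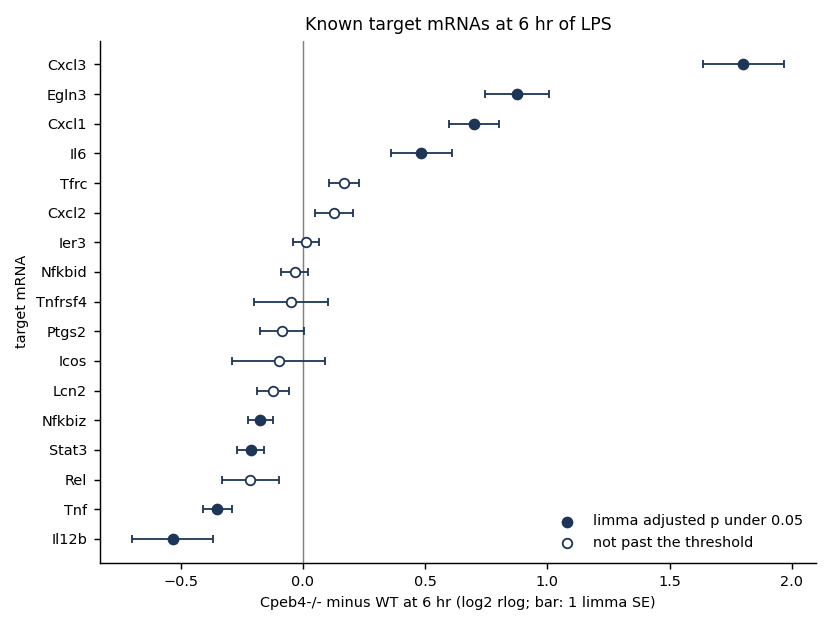
Difference in rlog level between Cpeb4-/- and WT at 6 hr of LPS (log2, horizontal axis) for the 17 target mRNAs, ordered by value, with bars of 1 limma SE (n = 4 mice per genotype). Filled points passed an adjusted p of 0.05, 4 of them above 0 up to Cxcl3 at 1.80 and 4 below 0 down to Il12b at -0.53. Of all genes tested, 16.3% passed.

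Over the 40 libraries, which share mice and time points, Arid5a and N4bp1 were the most alike members (Pearson r = 0.947), followed by Zc3h12a and Zc3h12c (0.905) and the Roquin pair (0.856). Zc3h12d correlated with no other member above 0.0884 and was most opposed to Rc3h1 (-0.547). Among 13103 genes, the 3 with the highest r were Etf1, Pde4b and Cflar for Zc3h12a (0.989 to 0.982), and Nlrp3, Sowahc and Pim1 for Zc3h12c (0.974 to 0.970). For Zc3h12d they were Ppp1r13b, Hsdl1 and Kif1bp (0.971 to 0.937), and for Rc3h1 Kbtbd2, Syne2 and Dock10 (0.965 to 0.953). Those for N4bp1 were Mcoln2, Lad1 and Rapgef2 (0.992 to 0.989) and those for Arid5a Gbp5, Lztfl1 and Nfil3 (0.992 to 0.982). These values describe profiles over libraries that share their time points.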

How the data were processed

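Poly(A) RNA of 40 BMDM cultures was sequenced. The authors aligned reads to mm10 (GRCm38) with STAR 2.3.0e, counted them per gene with featureCounts, and made rlog values with DESeq2. The values deposited by the authors are on a log2 scale, corrected for library size and shrunken for low counts, with genes named by Entrez ID and symbol. Whether counting used strand is not given in the sources used here. Read depth per library was not used here, so precision is judged from the spread of 4 mice per group.

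Differences were fitted with limma 3.58.1 (lmFit, eBayes with trend, R 4.3.3) on genes whose rlog averaged 2.32 (log2 of 5) or more. Genotypes were compared within each time (8 libraries), times within each genotype (20 libraries), and their interaction with 0 hr over 40 libraries. P-values were adjusted by Benjamini-Hochberg over all genes tested, and genes were called at an adjusted p under 0.05. Two-sided exact permutation tests of 4 against 4 mice stand beside the members. All ± values after a difference are limma standard errors, and those after a level are SDs. The procedure was tested on simulated data.

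Each mouse gave all 5 times, so libraries pair by animal. Deviations from group means correlated at a median r of 0.29 for the 80 pairs from the same mouse and -0.091 for 240 pairs of different mice. Alternatives were no filter, an average rlog of 5 or more, quantile normalization, eBayes without trend, batch as a covariate, mouse as a replicate block, and leaving out each mouse. The members and gene lists were chosen with earlier results of these data known. All members were named, with at most 4 called genes of each pathway list and comparison, by size of difference, and the 3 genes most alike to each member. Those of Rc3h2 are not reported here. Irak1, the marker genes, and at 6 hr Il6, Tnf, Stat3 and Nfkbiz fall outside that rule and were named after their values were seen. Sequences are from GENCODE and RefSeq (GRCm38.p6). Protein sequences were not used here. All value columns of the table were used. The main tests covered the 13008 to 13118 genes above the filter, and all 27179 genes entered only the alternative without a filter.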

Additional observations from a re-analysis of the deposited data

Results flagged for a closer look

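In 70 groups of 4 libraries (7 members, 2 genotypes, 5 times), 2 values stood apart from the other 3 by Dixon's test at the 95% level, where chance flags about 1 in 20 groups. Arid5a at 0 hr was 9.16 in Cpeb4-/- mouse 2, while the other Cpeb4-/- mice lay between 8.98 and 8.98, and the gap took 0.974 of the range. N4bp1 at 3 hr was 13.10 in Cpeb4-/- mouse 3, with the others between 13.18 and 13.19 and a gap of 0.917 of the range. Neither value entered a called genotype difference.

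Zc3h12d had a genotype difference that itself differed between 6 hr and 0 hr of LPS, by -0.49 log2 in the interaction test (limma, adjusted p = 5.29e-04). The 6 hr difference was lower in Cpeb4-/- in both batches, and the groups overlapped at 0 hr.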

How the results depend on the processing

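Of the single member results under all alternatives, 1823 kept their direction and side of the threshold, 47 lost and 39 gained a call, and 37 changed sign. As depth was not used here, the spread of 4 mice limits every count, and the cause of each change below was not tested. Zc3h12d at 6 and 9 hr kept its call throughout.

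For the genotype differences with mouse as a replicate block, all 40 libraries were fitted together. That fit called 414, 4323, 1393 and 2378 genes at 0, 1, 3 and 9 hr. The main fits, of 8 libraries per time and without a block, called 171, 251, 481 and 1029. Members called were 4 and 2 at 1 and 3 hr (0 and 1 in the main fits). The joint fit also shared its estimate of spread over all times, and the part of the block alone was not tested. For the interaction the replicate block gave 72, 1032 and 654 genes at 3, 6 and 9 hr (27, 385 and 231) and 3 and 1 members at 6 and 9 hr (1 and 0). Among comparisons of times, the block added the Rc3h1, Rc3h2 and Zc3h12c calls given with their time courses and that of Rc3h2 from 3 to 6 hr in WT (0.16 log2), and it changed no other member call there. Batch as a covariate gave 146 genes at 1 hr, 194 genes and 0 members at 3 hr and 1781 genes at 9 hr. Without trend, 230 genes and 0 members were called at 3 hr and 1 member at 6 hr. Without a filter, 43, 54, 90, 868 and 369 genes were called at 0, 1, 3, 6 and 9 hr (2129 at 6 hr with it), with 0 members at 3 hr and 1 at 6 hr, and 8 genes in the 1 hr interaction (1 with it). Quantile normalization gave 0 members at 3 hr and 227 genes in the 6 hr interaction.

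Leaving out 1 mouse gave 44 to 163, 40 to 2440, 76 to 2584, 1347 to 2331 and 387 to 4575 genes at 0, 1, 3, 6 and 9 hr, and 0 to 1, 0 to 4, 1 to 3 and 1 to 4 members at 1, 3, 6 and 9 hr. The interaction gave 0 to 2, 5 to 21, 84 to 391 and 89 to 226 genes at 1, 3, 6 and 9 hr, with 1 to 2 members at 6 hr and 0 to 1 at 9 hr.

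Signs changed under quantile normalization for genotype differences of N4bp1 at 3 hr (0.029) and in the 6 hr interaction (0.026), for Rc3h2 in WT at 1 hr against 0 hr (-0.0079), and in Cpeb4-/- for Zc3h12d at 6 and 9 hr against 0 hr (-0.18 and -0.11) and 9 against 6 hr (0.074), Rc3h2 at 9 against 0 hr (-0.091), and Zc3h12a and Rc3h1 at 6 against 1 hr (-0.14 and -0.093). Leaving out 1 mouse changed the sign of genotype differences that were not called, with these ranges: after 0 hr Zc3h12d (-0.062 to 0.0052) and Arid5a (-0.037 to 0.027), after 3 hr Rc3h1 (-0.0098 to 0.093) and N4bp1 (-0.037 to 0.0069), after 6 hr Zc3h12c (-0.11 to 0.0013), Rc3h2 (-0.069 to 0.0086) and N4bp1 (-0.018 to 0.039) and after 9 hr Zc3h12c (-0.0028 to 0.26). The same held for interactions of Zc3h12d (-0.062 to 0.0088) after 1 hr, Zc3h12c (-0.017 to 0.21) and Rc3h2 (-0.10 to 0.029) after 3 hr and Zc3h12c (-0.054 to 0.11), Rc3h1 (-0.11 to 0.023), N4bp1 (-0.0040 to 0.094) and Arid5a (-0.0011 to 0.059) after 9 hr, and for uncalled time differences of Zc3h12a (-0.057 to 0.037) from 1 to 3 hr and Zc3h12c (-0.16 to 0.057) and Arid5a (-0.16 to 0.0063) from 3 to 6 hr in WT, and Zc3h12a (-0.020 to 0.019) from 1 to 3 hr, Rc3h2 (-0.068 to 0.018) from 3 to 6 hr and Zc3h12d (-0.037 to 0.024) from 6 to 9 hr in Cpeb4-/-.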
